A study of Mus musculus with 12 samples.

Results

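The replication-type histone genes were followed here through 67 probe sets of 41345 on the array. They were the probe sets for which at least 1 annotated gene has a symbol that begins with Hist1h, Hist2h, Hist3h or Hist4h. The platform annotation uses the newer histone symbols, and 0 of its entries match those old prefixes directly, so the match was made through gene identifiers and the older symbols in a RefSeq gene table. That table lists 70 such genes, and probe sets named 69 of them, out of 23987 genes named by the annotation of the array: 6 of type H1, 19 of H2A, 19 of H2B, 12 of H3 and 13 of H4. Of these 69 genes, 55 lie on chromosome 13, 10 on chromosome 3, 3 on chromosome 11 and 1 on chromosome 6. The matching rows numbered 70, and 3 pairs with identical values were counted once each, which left 67. Of the 67, 32 name 1 gene and 35 name several, up to 13.

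The tissue was the aortic vessel, taken from female mice of the outbred CD-1 stock and run on 1 array per mouse. The 6 mice of the CM-695 group received this dual inhibitor of HDAC6 and phosphodiesterase 9 intraperitoneally at 80 mg/kg, 2 h and again 1 h before sacrifice. The 6 mice of the vehicle group received saline. The design text gives vehicle once and CM-695 in 2 doses, so the number of injections cannot be told apart from CM-695. The sources used here give no ages.

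Nucleosomes wrap DNA around pairs of the core histones H2A, H2B, H3 and H4, and linker histone H1 binds between them. The replication-type genes supply the bulk of these proteins during S phase, and their short, intronless transcripts end in a stem-loop in place of a poly(A) tail, although some, H2B genes among them, can also give polyadenylated transcripts in cells that do not divide. Deacetylases remove acetyl groups from histone tails in the nucleus, while HDAC6 acts mainly in the cytoplasm, with tubulin among its substrates. The series' subject is CM-695 and heat shock protein 70, and histone transcripts were examined as a readout of deacetylase inhibition or of proliferation. The primer used to make cDNA from the total RNA is not named in the sources used here, so how well transcripts without a poly(A) tail were captured is not known.

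Many of these genes are close copies, and H2A and H2B genes often lie head to head. Among the 63 promoter windows of 62 histone genes in a RefSeq table (GRCm38.p6, 250 bases before to 50 after each annotated start), 10 of 17 H2B windows overlapped the window of an H2A gene on the other strand. The octamer ATTTGCAT, the site of the factor OCT1 long known from H2B promoters, was present on either strand in 7 of 17 H2B windows and 7 of 18 H2A windows, in 0 of 6 H1, 0 of 10 H3 and 0 of 12 H4 windows, and in 1.74% of all 32851 windows of the table. The TATA motif TATAAA, searched on both strands, was in 8 of 17 H2B, 11 of 18 H2A, 4 of 6 H1, 4 of 10 H3 and 8 of 12 H4 windows, against 13.6% of all windows. The motif CCAAT, on both strands, was in all 17 H2B, 18 H2A, 6 H1 and 10 H3 windows and in 3 of 12 H4 windows, against 37.4% of all windows. The overlapping H2B and H2A windows share 220 to 279 of their 300 bases. As both strands were searched, a match in shared bases counts for both, and the H2A and H2B counts are not independent. Matches of these 3 motifs do not overlap one another in the windows printed below, and a match is a description of the letters, not a site in use. The windows of 2 genes measured by the H2B probe sets described first, of the H4 gene with a probe set of its own and the smallest p of its type, and of the linker histone gene H1f2 are shown 5′ to 3′. Capitals mark the 3 motifs on either strand, ATTGG being CCAAT read on the other. H2bc6 has 2 windows. The one with the octamer is shown, and the other holds 0 octamers, 0 TATAAA and 3 CCAAT.
H2bc6 (Hist1h2be), chr13:23585921-23586220, minus strand: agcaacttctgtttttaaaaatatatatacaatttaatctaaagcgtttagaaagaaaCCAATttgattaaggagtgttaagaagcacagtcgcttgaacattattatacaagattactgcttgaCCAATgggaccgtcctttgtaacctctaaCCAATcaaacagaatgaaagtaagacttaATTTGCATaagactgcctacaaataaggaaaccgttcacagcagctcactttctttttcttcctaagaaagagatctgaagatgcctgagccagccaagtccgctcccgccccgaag
H2bc8 (Hist1h2bg), chr13:23571150-23571449, plus strand: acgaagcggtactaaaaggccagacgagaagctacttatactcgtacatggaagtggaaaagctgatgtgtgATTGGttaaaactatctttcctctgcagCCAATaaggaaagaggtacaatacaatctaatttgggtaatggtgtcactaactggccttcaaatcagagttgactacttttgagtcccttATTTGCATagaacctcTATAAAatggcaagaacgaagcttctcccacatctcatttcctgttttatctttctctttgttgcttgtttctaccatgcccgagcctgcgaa
H4c12 (Hist1h4k), chr13:21750504-21750803, minus strand: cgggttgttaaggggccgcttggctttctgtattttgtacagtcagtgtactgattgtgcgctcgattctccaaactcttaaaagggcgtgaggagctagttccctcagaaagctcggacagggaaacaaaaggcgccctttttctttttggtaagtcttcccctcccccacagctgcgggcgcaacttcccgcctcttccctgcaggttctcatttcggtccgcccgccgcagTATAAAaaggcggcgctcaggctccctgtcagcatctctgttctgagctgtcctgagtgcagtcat
H1f2 (Hist1h1c), chr13:23738557-23738856, plus strand: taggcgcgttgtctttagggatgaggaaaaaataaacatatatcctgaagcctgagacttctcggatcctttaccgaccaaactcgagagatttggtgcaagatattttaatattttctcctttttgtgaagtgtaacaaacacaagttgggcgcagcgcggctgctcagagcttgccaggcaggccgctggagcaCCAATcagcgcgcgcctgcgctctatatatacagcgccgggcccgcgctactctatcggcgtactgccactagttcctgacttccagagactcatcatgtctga
The H2bc6 and H2bc8 windows shown hold 1 octamer each, 67 and 59 bases before the start, and that of H2bc6 was picked for it. The H2bc8 and H4c12 windows hold 1 TATAAA each, 43 and 16 bases before the start. The H2bc8 window holds 2 CCAAT and the H2bc6 window 3. The H1f2 window holds 1 CCAAT and neither of the other motifs.

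Values are the deposited log2 expression values, means are given ± SD over the 6 mice of a group, and every difference is CM-695 minus vehicle on that scale with limma's standard error (SE). Array medians lay between 4.69 and 4.74, and 46 of the 67 probe sets averaged at or below 4.70, the median over all probe sets. Without detection calls, a low value may stand for weak expression or for none, and 6 mice per group limit the precision. Of the markers of a vessel wall, 8 of 8 for smooth muscle and 9 of 9 for endothelium lay above the median probe set. So did 8 of 8 each for fibroblasts, adipocytes, macrophages and heart muscle, and these levels do not tell the aorta from other tissues. In whole tissue, fewer cells of a type and less RNA per cell cannot be told apart.

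A probe set for H2B genes was the only histone probe set past the threshold (limma, Benjamini-Hochberg adjusted p under 0.05 over all probe sets). It rose after CM-695. Over the whole array 64 probe sets passed (0.155%), 10 of them higher (0.0242%) and 54 lower (0.131%). Of the histone probe sets 1 was higher and 0 were lower. At an unadjusted limma p under 0.05, 11 of 67 were higher and 1 was lower, against 4.41% and 4.71% of all probe sets. Differences above 0 were found in 47 of 67, against 52.5% of all probe sets. The median difference was 0.12 over the 67 histone probe sets and 0.01 over all probe sets. Probe sets that name the same genes are not independent of each other, so these counts describe the family and carry no test.

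By type, the median difference was 0.21 for H4 (14 probe sets, 12 above 0), 0.14 for H3 (12 probe sets, 9 above 0), 0.11 for H2B (17 probe sets, 12 above 0), 0.05 for H1 (5 probe sets, 4 above 0) and -0.01 for H2A (18 probe sets, 9 above 0). The remaining probe set names H1f4 together with 3 H2B genes. Differences between the types were not tested. Probe sets that name 1 gene had a median of 0.04 (32 probe sets, 0 past the threshold, 3 higher and 1 lower at an unadjusted p under 0.05). Those that name several had a median of 0.14 (35 probe sets, 1 past the threshold, 8 higher and 0 lower at an unadjusted p under 0.05).

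**Figure D1:**
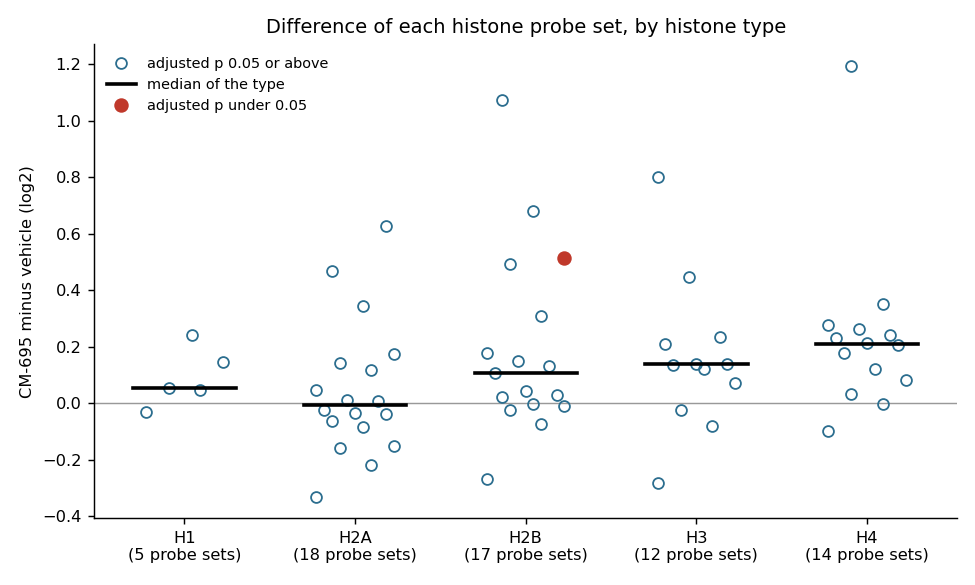
Difference of each histone probe set (y axis, CM-695 minus vehicle, log2) by histone type, 1 circle per probe set, with the black bar at the median of the type; horizontal offsets only separate the circles. The filled circle is the H2B probe set past the threshold, and the medians run from -0.01 in H2A to 0.21 in H4.

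The H2B probe set that rose, 17285691, names 12 genes (H2bc4, H2bc6, H2bc7, H2bc8, H2bc9, H2bc11, H2bc12, H2bc13, H2bc14, H2bc15, H2bc23 and H4bc24). The last of these is listed with the older symbol Hist1h2br, an H2B name. CM-695 mice 1 to 6 measured 8.78, 8.66, 8.90, 8.91, 8.79 and 8.70, against 8.32, 8.16, 8.40, 8.20, 8.39 and 8.16 in vehicle mice 1 to 6. Every treated mouse lay above every vehicle mouse, and the spread within either group was small. The means were 8.79 ± 0.10 in CM-695 mice and 8.27 ± 0.11 in vehicle mice. They differed by 0.52 or 1.43-fold, with an SE of 0.084 and a 95% confidence interval of 0.33 to 0.70 (limma adjusted p = 0.0341). Its difference stayed between 0.49 and 0.54 when any 1 mouse was left out, but the call held only without CM-695 mouse 2 or vehicle mouse 5. Without any other mouse the adjusted p was 0.0582 to 0.0914.

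A second probe set names the same 12 genes, and it also separated the groups. It averaged 4.42, below the median probe set. Probe set 17285710 measured 4.72, 4.77, 4.68, 4.65, 4.58 and 4.58 in CM-695 mice 1 to 6, and 4.46, 3.92, 4.54, 4.21, 4.10 and 3.80 in vehicle mice 1 to 6. All 6 treated mice stood above the highest vehicle mouse, although by little. The difference was 0.49 (SE 0.12, adjusted p = 0.190), which did not pass. No overlap between the groups was seen in 2 histone probe sets with treated mice higher and in 0 with treated mice lower, against 0.370% and 0.542% of all probe sets.

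None of the probe sets for fewer of these H2B genes passed. H2bc4, H2bc6 and H2bc8 (older symbols Hist1h2bc, Hist1h2be and Hist1h2bg) share probe set 17285851, which measured 9.82, 8.64, 9.63, 10.03, 9.52 and 9.72 after CM-695, against 8.40 to 9.52 in 5 vehicle mice and 7.26 in vehicle mouse 6. CM-695 mouse 2 was far below the other treated mice, and vehicle mouse 1, at 9.52, lay just below the other 5 treated mice. The means were 9.56 ± 0.48 in CM-695 mice and 8.49 ± 0.74 in vehicle mice. They differed by 1.07, with an SE of 0.32 and a 95% confidence interval of 0.39 to 1.76 (limma adjusted p = 0.292). Another probe set for these 3 genes, 17285834, differed by 0.18 (SE 0.22, adjusted p = 0.842), and the one that adds H1f4, which encodes a linker histone, by 0.21 (SE 0.11, adjusted p = 0.585). All 5 probe sets that name H2bc4 also name H2bc6 and H2bc8, and their differences were above 0, between 0.18 and 1.07. None of them measures any of these genes alone, so the values do not tell which gene differed.

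H2bc7, H2bc11, H2bc13 and H2bc15 share 3 further probe sets. The probe set 17290997 measured 9.27, 9.28, 9.48, 9.55, 9.60 and 9.32 after CM-695, against 8.91, 8.83, 9.25, 9.24, 9.32 and 9.09 after vehicle. In it 4 of 6 treated mice lay above the highest vehicle mouse, the other 2 within the vehicle range (difference 0.31, SE 0.11, adjusted p = 0.391). The other 2 differed by 0.11 and 0.13, each with a confidence interval that includes 0.

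None of the H2B genes with a probe set of its own passed the threshold. H2bc21 (Hist2h2be), on chromosome 3 and chosen after its values were seen, measured 6.36, 7.0, 6.90, 6.12, 6.68 and 5.83 after CM-695 and 6.45, 5.84, 5.29, 5.31, 6.03 and 5.91 after vehicle. The groups overlapped through CM-695 mouse 6 and vehicle mouse 1, and the difference of 0.68 (SE 0.24, adjusted p = 0.381) did not pass. H2bc12, also chosen after its values were seen, had the lowest H2B difference, -0.27 (SE 0.18, adjusted p = 0.689). H2bc12 is 1 of the 12 genes of the probe set that rose, and its own probe set averaged 3.76, below the median probe set. H2bc9 and H2bc14, also among the 12, have dim probe sets of their own, averaging 3.10 and 2.94. They differed by 0.15 (SE 0.30) and 0.04 (SE 0.13). The gene H2bc1, which encodes a testis type of H2B, was at 1.06 to 1.63 after CM-695 and 1.24 to 1.74 after vehicle, below the median probe set. Over all 9 single-gene H2B probe sets the median difference was -0.00, with 0 past the threshold. At an unadjusted limma p under 0.05, 1 of them was higher, against 4.41% of all probe sets. Over the 8 multi-gene ones the median difference was 0.24, with 8 above 0 and 1 past the threshold, against 0.0242% of all probe sets. At an unadjusted limma p under 0.05, 4 of the 8 were higher, against 4.41% of all probe sets.

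**Figure D2:**
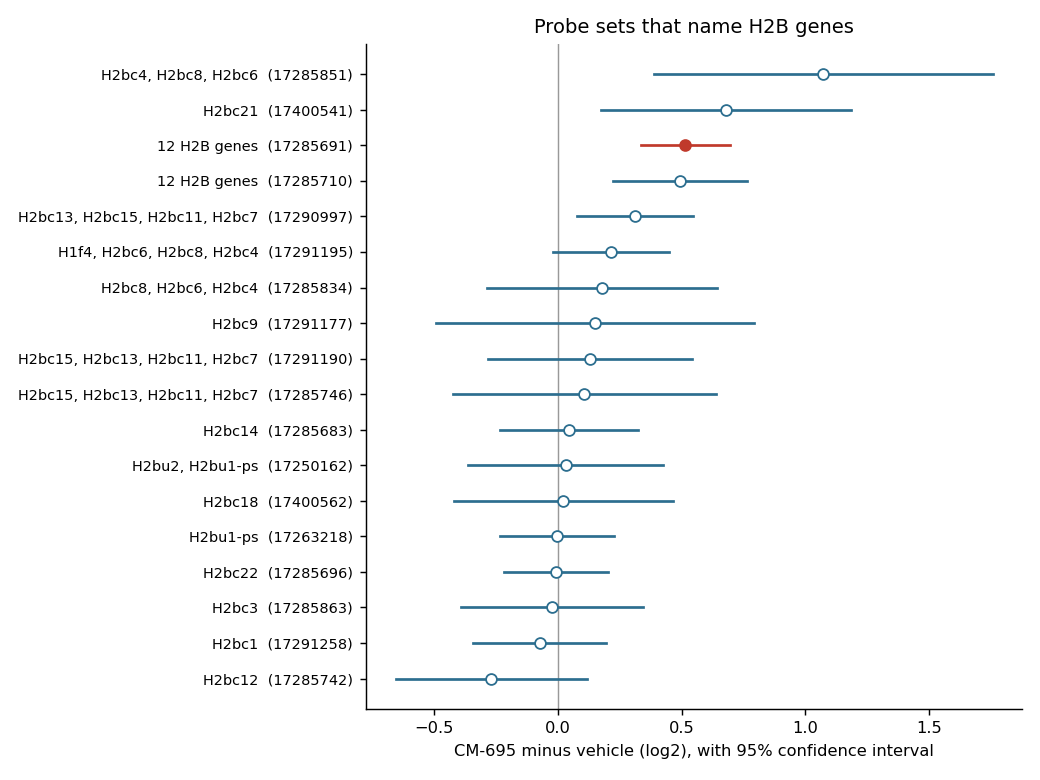
Difference (x axis, CM-695 minus vehicle, log2) with its 95% confidence interval for the 18 probe sets that name H2B genes, labelled by gene and probe set identifier. The filled point is the 12-gene probe set at 0.52, which alone passed the threshold, and the single-gene probe sets other than H2bc21, at 0.68, lie between -0.27 and 0.15.

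H4 probe sets had the highest median difference of the 5 types, and none passed the threshold. Mouse H4 genes mostly encode the same protein, and 4 probe sets name the same 13 H4 genes. Among these, 17291019 measured 4.95, 4.08, 4.97, 5.09, 4.62 and 4.26 after CM-695, against 4.19, 2.51, 3.56, 2.98, 4.08 and 3.47 after vehicle. All treated mice except mouse 2 stood above vehicle mouse 1, the highest of its group, and mouse 2 lay level with vehicle mouse 5. The difference was 1.20, with an SE of 0.28 and a 95% confidence interval of 0.60 to 1.79 (limma adjusted p = 0.140). It was 0.08, 0.23 and 0.26 in the other 3 probe sets for the same genes, none past the threshold. These 13-gene probe sets averaged 2.75 to 4.06, below the median probe set.

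The probe set 17285706, for 6 of those genes, measured 3.60, 3.57, 3.48, 3.64, 3.49 and 3.67 after CM-695 and 3.52, 3.21, 3.29, 3.24, 3.24 and 3.29 after vehicle. Vehicle mouse 1 was the only vehicle mouse within the range of the treated mice (difference 0.28, SE 0.081, adjusted p = 0.284). H4c12 (Hist1h4k), whose promoter window is shown above, had 9.00, 9.11, 8.82, 9.16, 8.85 and 9.21 after CM-695. Its vehicle values were 9.24, 8.67, 8.55, 8.41, 8.52 and 8.64. Vehicle mouse 1 exceeded all treated mice, while the other 5 vehicle mice lay below all of them. The difference was 0.35 (SE 0.14, adjusted p = 0.450), and 0.47 (adjusted p = 0.131) without vehicle mouse 1. H4c2, with a probe set of its own below the median probe set, differed by 0.21 (SE 0.11, adjusted p = 0.592).

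H3 was measured by probe sets that all name several genes. Of these, 8 name the 8 genes H3c2, H3c3, H3c4, H3c6, H3c7, H3c13, H3c14 and H3c15, and their differences ran from -0.28 to 0.80, 7 of 8 above 0. Probe set 17291183 measured 3.18, 2.64, 2.29, 3.30, 3.01 and 3.04 after CM-695, and 1.78, 2.57, 1.81, 2.55, 2.13 and 1.82 after vehicle. Only CM-695 mouse 3 lay within the vehicle range (difference 0.80, SE 0.20, adjusted p = 0.171), and all of these values lie below the median probe set.

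Probe set 17408015, for the same 8 H3 genes, measured 3.81, 3.66, 3.38, 3.87, 3.31 and 3.26 after CM-695, against 3.28, 3.22, 2.90, 3.13, 2.94 and 3.15 after vehicle. Again 5 of 6 treated mice were above the highest vehicle mouse (difference 0.45, SE 0.13, adjusted p = 0.260). In 17400555 the groups overlapped, at 6.21 to 6.80 after CM-695 and 6.23 to 6.80 after vehicle (difference 0.14, SE 0.12). Another, 17285825, had the lowest difference, -0.28 (SE 0.17, adjusted p = 0.650), and 17291222 differed by 0.14 (SE 0.096, adjusted p = 0.704). The 4 probe sets for H3c1, H3c8, H3c10 and H3c11 differed by -0.08 to 0.12.

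**Figure D3:**
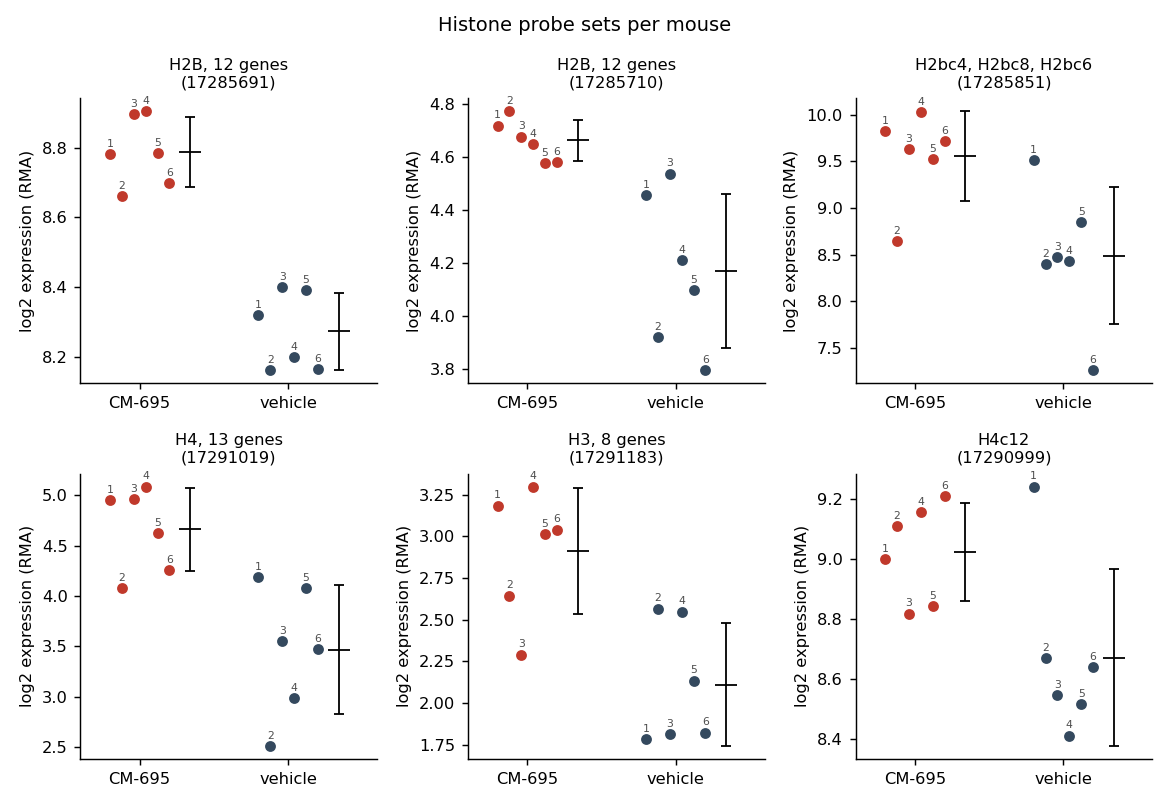
Log2 expression (y axis) of 6 histone probe sets in each mouse, CM-695 left and vehicle right, with mouse numbers beside the points and the mean ± SD (n = 6) beside each group. The groups are apart in both 12-gene H2B probe sets, and single mice bridge them elsewhere, such as vehicle mouse 1 at 9.24 for H4c12 and CM-695 mouse 2 at 8.64 for H2bc4, H2bc8 and H2bc6.

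H2A probe sets were split evenly, 9 of 18 above 0, and 0 passed the threshold. At an unadjusted limma p under 0.05, 1 was higher and 1 was lower, against 4.41% and 4.71% of all probe sets. The shared probe set for H2ac18, H2ac19 and H2ac20 measured 10.23, 9.96, 9.90, 10.71, 10.60 and 10.05 after CM-695 and 9.74, 10.13, 10.75, 10.48, 10.22 and 10.28 after vehicle, fully overlapping. Its difference was -0.02, with an SE of 0.18 and a 95% confidence interval of -0.42 to 0.37 (limma adjusted p = 0.981). The 7 probe sets for a shared list of 10 H2A genes differed by -0.16 to 0.34, with a median of 0.01.

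Of H2A genes with a probe set of their own, H2ac21 was at 4.61, 4.57, 4.62, 5.21, 4.91 and 4.77 after CM-695, and at 5.27, 5.15, 5.15, 4.60, 5.15 and 5.36 after vehicle. The ranges overlapped, and only 1 CM-695 mouse lay below all vehicle mice. CM-695 mouse 4 was the highest of its group and vehicle mouse 4 the lowest of its own (difference -0.33, SE 0.14, limma adjusted p = 0.516). A second probe set for H2ac21 differed by 0.12. H2aw (Hist3h2a), on chromosome 11, differed by 0.63 (SE 0.28, adjusted p = 0.524), with vehicle mouse 1 at 2.55 and the other 5 at 3.31 to 4.49, against 4.07 to 4.72 in treated mice; without vehicle mouse 1 the difference was 0.38. The pseudogene H2af-ps2 differed by 0.47 (SE 0.28, adjusted p = 0.649). Both genes have a probe set of their own in 2 of the H2A and H2B pairs with overlapping promoter windows. H2ac12 differed by -0.15 (SE 0.11, adjusted p = 0.718) and its partner H2bc12 by -0.27, and the testis gene H2ac1 differed by -0.04 (SE 0.18) and its partner H2bc1 by -0.07 (SE 0.12).

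No linker histone probe set passed the threshold. H1f2 (Hist1h1c) measured 6.69, 6.37, 6.54, 6.74, 6.54 and 6.35 after CM-695 and 6.33, 6.05, 6.44, 5.71, 6.96 and 6.27 after vehicle. All treated values lay inside the vehicle range (difference 0.24, SE 0.17, confidence interval at the 95% level -0.13 to 0.61, adjusted p = 0.709). H1f5 differed by 0.15 (SE 0.14) and H1f3 by 0.05 (SE 0.10), and the 5 H1 probe sets ran from -0.03 to 0.24. Of these, 0 passed the threshold and 0 had an unadjusted limma p under 0.05.

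Per mouse, the median over the 67 probe sets was 3.74, 3.63, 3.55, 3.78, 3.53 and 3.49 in CM-695 mice 1 to 6, against 3.53, 3.41, 3.31, 3.24, 3.31 and 3.37 in vehicle mice 1 to 6. CM-695 mouse 6 lay below vehicle mouse 1, and otherwise the treated mice were the higher ones. The array medians over all probe sets overlapped, at 4.70 to 4.74 after CM-695 and 4.69 to 4.74 after vehicle. For the H2B probe sets the median per mouse ran from 4.13 to 4.65 in treated mice and from 3.82 to 4.31 in vehicle mice, with CM-695 mouse 2 the lowest of its group. The H4 median was 3.32 to 3.71 after CM-695 and 3.0 to 3.52 after vehicle, with vehicle mouse 1 the highest of its group. The H2A median was 3.61 to 4.19 after CM-695 and 3.31 to 3.82 after vehicle, and the H3 median 2.21 to 3.15 after CM-695 and 2.26 to 2.56 after vehicle, and in each type 4 of the 6 CM-695 mice exceeded all vehicle mice. The H1 medians overlapped, with 0 treated mice above the highest vehicle mouse, at 3.21 to 3.57 after CM-695 and 3.21 to 3.64 after vehicle. A median per mouse is the value of the middle probe sets of that mouse, so it need not follow the fitted differences. For H2A these medians averaged 3.88 after CM-695 and 3.53 after vehicle, while the median fitted difference was -0.01, 9 of 18 above 0. Over all 67 they averaged 3.62 and 3.36, while the median fitted difference was 0.12. The medians per mouse are descriptions of probe sets that share genes and carry no test.

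**Figure D4:**
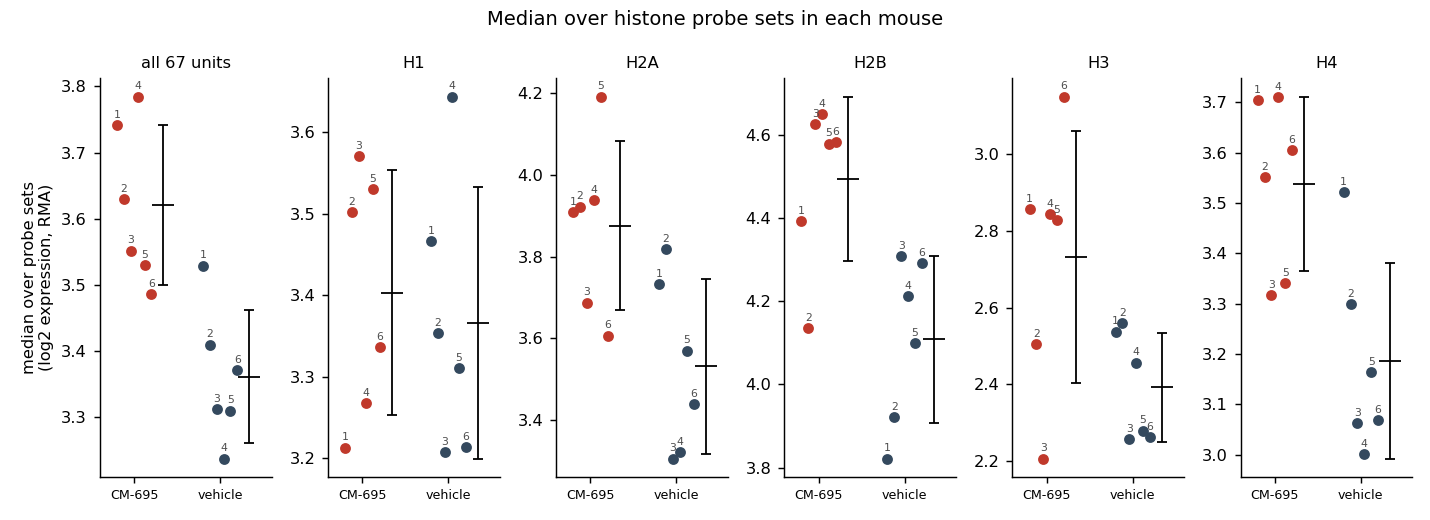
Median log2 expression (y axis) over all 67 histone probe sets and over each histone type in each mouse, CM-695 left and vehicle right, with mouse numbers and the mean ± SD (n = 6). Over all 67, CM-695 mice lie between 3.49 and 3.78 and vehicle mice between 3.24 and 3.53; in the H1 panel the treated mice lie within 3.21 to 3.57, below the highest vehicle mouse.

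Histone genes that are expressed outside S phase were measured beside them. Of 11 listed replication-independent histone genes, 8 had a probe set of their own, with a median difference of 0.00, 0 past the threshold (0.155% over the array) and 0 at an unadjusted limma p under 0.05. H2ax, whose product is phosphorylated at DNA breaks, differed by -0.25 (SE 0.16), and H2az1 and H2az2, the genes of H2A.Z, by -0.22 (SE 0.16) and -0.01 (SE 0.083). Macroh2a1 and Macroh2a2 differed by 0.01 and -0.15, H2aj by 0.12, the linker histone gene H1f10 by 0.15 and the centromeric H3 gene Cenpa by 0.03. The 7 distinct probe sets that name an H3.3 gene, H3f3a or H3f3b, with related genes differed by -0.32 to 0.11, 0 of them past the threshold. Among them, 17548283 differed by -0.32 (SE 0.11) and 17548946 by -0.30 (SE 0.11). Only these H3.3 probe sets reached an unadjusted limma p under 0.05. Over the array, 4.71% of all probe sets were lower at that p.

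Regulators of histone transcripts had differences on both sides of 0. Among 19 genes for histone transcription and 3′ end processing the median difference was -0.02, with 0 past the threshold and, at an unadjusted limma p under 0.05, 1 lower and 0 higher, against 4.71% and 4.41% of all probe sets. That one was Npat, the cyclin E–CDK2 substrate that activates histone genes, which averaged 6.03 ± 0.26 after CM-695 and 6.46 ± 0.15 after vehicle. Its difference was -0.44 (SE 0.12, adjusted p = 0.262), with 5 of 6 treated mice below all vehicle mice. Casp8ap2, which encodes the processing factor FLASH, differed by -0.21 (SE 0.10), Lsm10, a part of the U7 particle, by 0.23 (SE 0.12), and Slbp, the stem-loop binding protein, by 0.19 (SE 0.11). Among 19 histone chaperone genes the median was -0.05, with 5 above 0, 14 below and 0 past the threshold. At an unadjusted limma p under 0.05, 1 was higher and 0 were lower, against 4.41% and 4.71% of all probe sets. That one was Asf1b, an H3–H4 chaperone of dividing cells, which averaged 5.21 ± 0.26 after CM-695 and 4.82 ± 0.14 after vehicle. Its difference was 0.39 (SE 0.12, adjusted p = 0.344), and 5 of 6 treated mice exceeded all vehicle mice. Vps72 (0.16), Atrx (-0.24) and Cabin1 (-0.18), which serve H2A.Z and H3.3 deposition, had adjusted p of 0.556 to 0.561.

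Genes of S phase and mitosis, the other transcripts of dividing cells, lay on both sides of 0. The 47 measured genes of 50 had a median difference of -0.02, 21 above 0 and 26 below. Past the threshold were 0, where the array-wide share is 0.155%. With an unadjusted limma p under 0.05 there were 0 higher and 1 lower, against 4.41% and 4.71% of all probe sets. Their mean per mouse was 4.75 to 4.80 after CM-695 and 4.73 to 4.89 after vehicle. The lower one was Ccnb2, a mitotic cyclin gene, at -0.42 (SE 0.14, adjusted p = 0.347), followed by Foxm1, a transcription factor of G2 and mitosis, at -0.20, Ccna2, cyclin A2, at -0.37, and Nusap1, a spindle protein gene, at -0.23. In this list 20 genes lay at or below the median probe set.

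Genes reported to rise with deacetylase inhibitors lay evenly on both sides of 0. Of 14 listed, 12 were measured, with a median difference of 0.00, 6 above 0 and 6 below. Past the threshold 0 were higher and 3 were lower, against 0.0242% and 0.131% of all probe sets. The metallothionein genes Mt1 and Mt2 both fell. Mt1 fell by 0.85 with an SE of 0.087 (limma adjusted p = 0.000986), and Mt2 fell by 1.24 with an SE of 0.20 (limma adjusted p = 0.0341). Rhob, a small GTPase gene, fell by 0.65 with an SE of 0.10 (limma adjusted p = 0.0239). All 6 treated mice lay below all vehicle mice for each of these 3 genes, a pattern found in 0.542% of all probe sets. The Mt2 call was lost without CM-695 mouse 3, 4, 5 or 6 or vehicle mouse 1, 2, 3 or 6 (adjusted p of 0.05004 to 0.0871), and the Rhob call without CM-695 mouse 1, 3, 5 or 6 or vehicle mouse 1, 2, 3 or 6 (0.0518 to 0.0722). Txnip, the thioredoxin-interacting protein gene, averaged 11.51 ± 0.31 in CM-695 mice and 11.12 ± 0.23 in vehicle mice. It differed by 0.39 (SE 0.15, limma adjusted p = 0.453). Before adjustment, the limma p lay under 0.05 for 3 of the 12 genes with a rise and for 3 with a fall. The array-wide shares are 4.41% and 4.71%. Those with a fall are Mt1, Mt2 and Rhob. Those with a rise are Txnip and, chosen after their values were seen, Cdkn1a and Tgfbr2. Cdkn1a differed by 0.37 (SE 0.17, limma adjusted p = 0.534) and Tgfbr2 by 0.24 (SE 0.11, limma adjusted p = 0.525). The linker histone gene H1f0, the histone member of this list, was not analysed here.

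**Figure D5:**
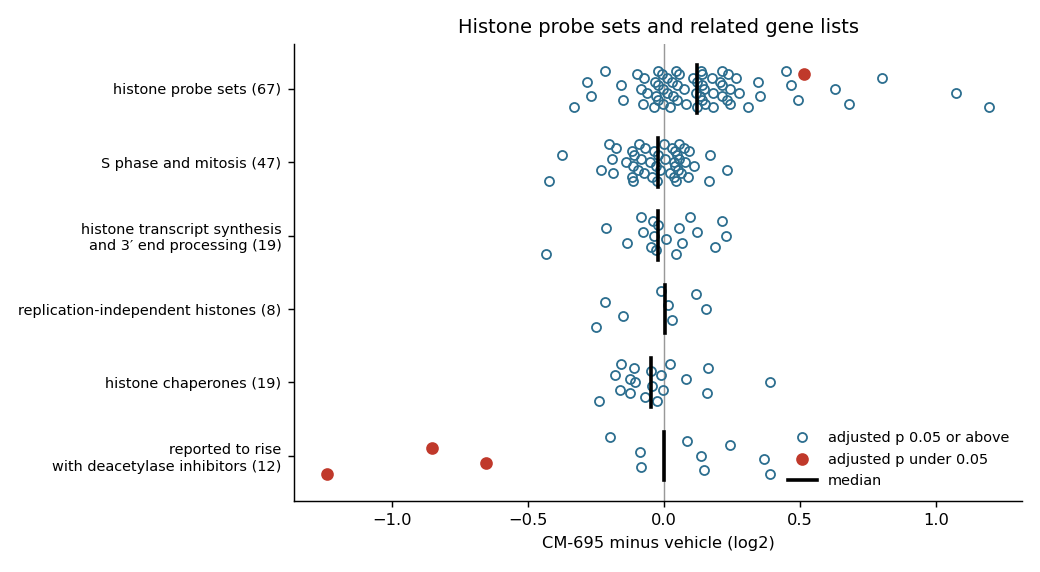
Difference (x axis, CM-695 minus vehicle, log2) of each histone probe set and of each measured gene of 5 related lists, with the number of points in brackets and a black bar at each median; vertical offsets only separate the circles. The median is 0.12 for the histone probe sets and between -0.05 and 0.00 for the lists, and the filled circles past the threshold are 1 histone probe set, higher, and Mt1, Mt2 and Rhob, lower.

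None of the cell type markers passed the threshold (0.155% over the array), while several lists leaned to 1 side of 0. At an unadjusted limma p under 0.05, 7 of 8 heart muscle and 3 of 8 fibroblast markers were lower, against 4.71% over the array. At that p, 3 of 7 lymphocyte, 3 of 5 platelet, 2 of 9 endothelium and 1 of 8 adipocyte markers were higher, against 4.41%. In the other marker lists 0 differed at that p. Heart muscle markers were below 0 in 8 of 8 (median -1.68), with a mean per mouse of 6.33 to 8.96 after CM-695 and 7.76 to 9.92 after vehicle. Fibroblast markers were below 0 in 8 of 8 (median -0.49; mean per mouse 8.67 to 9.25 after CM-695 and 8.95 to 9.81 after vehicle). Smooth muscle markers were also below 0 in 8 of 8 (median -0.29), with a mean per mouse of 8.75 to 10.58 after CM-695 and 9.28 to 10.12 after vehicle. Lymphocyte markers were above 0 in 7 of 7 measured, from 0.12 to 0.77 (median 0.35). Their mean per mouse was 4.78 to 5.42 after CM-695 and 4.46 to 5.05 after vehicle. Cd79b, a B cell receptor gene with the smallest p of this list, was at 0.42 (SE 0.15, limma adjusted p = 0.390). Platelet markers were above 0 in 5 of 5 measured (median 0.32; mean per mouse 5.31 to 5.75 after CM-695 and 5.0 to 5.55 after vehicle). Medians were 0.14 for endothelium, 0.05 for adipocytes, -0.04 for macrophages, 0.03 for neutrophils and -0.06 for the 2 measured red cell genes. The part of these shifts in the histone values was not tested.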

How the data were processed

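RNA of 12 aortic samples, 6 after CM-695 and 6 after vehicle, was measured on 1 Affymetrix mouse gene array each (1 mouse per array). The authors deposited log2 values for 41345 probe sets, made with RMA per the submitters' processing notes; RMA corrects background, normalizes across arrays and summarizes each probe set, which compresses differences of dim probe sets. The sources used here name neither its software nor its version. Correlations between arrays ran from 0.957 to 0.977.

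CM-695 and vehicle were compared over all probe sets by two-sided moderated tests (lmFit, eBayes; limma 3.58.1, R 4.3.3). Benjamini-Hochberg adjustment covered all of them, and the threshold on the adjusted p was 0.05. The procedure was tested on simulated data. Probe sets with several genes were kept as units, identical rows were counted once, and for other lists only probe sets with 1 gene were used, the one with the highest mean per gene. The probe sets, lists and motifs were chosen with earlier results of these data known. Named were histone probe sets past the threshold or without overlap between the groups, per type the 3 with the smallest p and those with the highest and lowest mean, all measured replication-independent histones, and the 4 genes with the smallest p of the other lists; others, among them H2bc21, H2bc12, H2ac1, the H3.3 probe sets and further probe sets for genes already named, were chosen after their values were seen. Alternatives were a block for the replicate number, leaving out dim probe sets, centring each array on its median, repeated quantile normalization, eBayes with trend and robust, array weights, identical rows entered once, single-gene probe sets only, and leaving out each mouse. The labels do not say that equal replicate numbers mark a shared litter or day, and the deviations of same-numbered mice correlated between -0.104 and 0.101, so mice were not paired. Promoter sequences came from RefSeq (GRCm38.p6).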

Additional observations from a re-analysis of the deposited data

Results flagged for a closer look

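Among 46 groups of 6 values, those of the 23 named histone probe sets in CM-695 and vehicle mice, 4 held a mouse whose gap to the nearest other mouse was large for the range of its group; chance gives about 1 in 20. CM-695 mouse 2 was at 8.64 in the probe set for H2bc4, H2bc8 and H2bc6, the other treated mice at 9.52 to 10.03, and without it the difference was 1.26 (limma adjusted p = 0.150). Vehicle mouse 1 was at 9.24 for H4c12, the other vehicle mice at 8.41 to 8.67. It was also at 3.52 in the 6-gene H4 probe set, the others at 3.21 to 3.29, and without it that difference was 0.32 (adjusted p = 0.182). Vehicle mouse 4 was at 4.60 for H2ac21, the others at 5.15 to 5.36, and without it the difference was -0.43 (adjusted p = 0.333).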

How the results depend on the processing

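The 12-gene H2B probe set kept its direction in all 19 alternatives fitted across probe sets, with a difference of 0.49 to 0.54, and passed the threshold in 8 of them. With the replicate number as a block 15 probe sets passed over the whole array, and 0 of the histone ones (adjusted p = 0.158 for the 12-gene H2B probe set). Same-numbered mice shared only a number, and 1 of 6 CM-695 mice correlated best with the vehicle mouse of its own number. Without dim probe sets 116 passed over the array. Leaving out 1 mouse gave 22 to 98 passing probe sets over the array and 0 to 1 histone probe sets; fewer mice were tested there. Among the 32 single-gene histone probe sets 0 passed by limma, with 4 at an unadjusted p under 0.05 in either direction. Over all probe sets 4.41% were higher and 4.71% lower at that p. The median difference of the histone probe sets was 0.08 to 0.13 with 1 mouse left out, and 0.04 for single-gene probe sets. Of 23 named histone probe sets, 22 kept their direction in every alternative run on them. The exception was the one for H2ac18, H2ac19 and H2ac20, at 0.00708 after repeated quantile normalization and at -0.129 to 0.0740 with 1 mouse left out. Mt1 passed in all 19 alternatives, and Mt2 and Rhob in 10 each (adjusted p of 0.0800 and 0.179 with the replicate block). Of 25 other named genes, 21 kept their direction. The exceptions with 1 mouse left out were H2az2 (-0.0530 to 0.0236, and 0.00554 after repeated quantile normalization), Macroh2a1 (-0.0175 to 0.0375), Macroh2a2 (-0.328 to 0.0129) and Cenpa (-0.0281 to 0.0750). Dim signal limits 46 of the 67 probe sets.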
